A study of Mus musculus with 2 samples.

Results

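The 41 genes described here encode enzymes and carriers that take glucose to pyruvate and lactate, pass pyruvate into mitochondria and run the tricarboxylic acid (TCA) cycle. They were chosen by gene symbol, as a fixed list of 18 glycolytic genes with lactate dehydrogenase, 11 genes of pyruvate entry and oxidation and 12 genes of the cycle, out of 55536 mouse genes in the deposited gene tables. No measured value was part of the rule, but the list was chosen with earlier results of these data known. The symbols were read from the transcript names and joined to the gene tables by gene identifier, and all 41 were found. The symbol Aldoa belongs to 2 identifiers, ENSMUSG00000030695.16, which is used throughout, and ENSMUSG00000114515.2, which held 25 and 18 expected counts in replicates 1 and 2.

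The libraries were made from total RNA of hippocampus, labelled as a layer of that region, of adult females of a 5xFAD by CAST cross, 8 to 10 months old. 5xFAD mice are a transgenic model of familial Alzheimer disease whose transgenes are driven by the neuronal Thy1 promoter, and CAST is a wild-derived inbred strain. There were 2 biological replicates in 1 group and no control group, and both replicates carry the same donor record, so the spread between them may be technical or may lie between animals. No comparison between conditions was therefore possible, and no p-value was computed; the data give levels, the make-up of each enzymatic step, and the difference of replicate 1 from replicate 2. The tables rest on the mm10 reference and no CAST sequence was used here, and the effect of CAST sequence differences on the counts was not tested.

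Glycolysis splits glucose into pyruvate in the cytosol, spending ATP in its early steps and regaining it in its late ones. Pyruvate is then either reduced to lactate or carried into mitochondria, where the pyruvate dehydrogenase complex turns it into acetyl-CoA for the TCA cycle, or carboxylase turns it into oxaloacetate. In brain, glucose is the main fuel, and neurons and astrocytes are known to differ in which isoenzymes they use for the same step. The isoenzyme pairs are therefore described beside the levels.

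Sequencing depth was 27816845 expected counts in replicate 1 and 32316737 in replicate 2. The limit that a gene at 0 allows, 3 counts, equals 0.108 CPM (counts scaled to the library total) in replicate 1 and 0.0933 CPM in replicate 2, for counting error only. Markers of hippocampal fields and of cell types were examined, but none of other brain regions, so they cannot decide the tissue label. All 10 markers of hippocampal fields reached 1 TPM (a level divided by transcript length, defined with the members) in each library. Wfs1, for example, had 57.5 and 61.9 TPM. All 10 markers each of neurons, astrocytes, oligodendrocytes and microglia reached 1 TPM too, and of all nuclear protein-coding genes 60.2% did. Of 10 markers of choroid plexus and ependyma 9 did. Their summed level was 470.3 TPM in replicate 1 against 169.2 TPM in replicate 2, and each of the 10 stood higher in replicate 1. In bulk RNA, a lower share of cells of a type and less RNA per cell cannot be told apart.

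Every member was measured well above the floor. Expected counts, which split reads that match several transcripts, ran from 378 (Pdk4, replicate 1) to 35541 (Aldoa, replicate 2). TPM, the authors' unit, divides counts by transcript length and scales each library to the same sum, so that levels of different genes can be set side by side. All 41 members reached 1 TPM in each library, as did 13251 of the 22015 nuclear protein-coding genes (60.2%). The median over the members was 91.1 TPM in replicate 1 and 97.7 TPM in replicate 2, against 15.25 and 15.33 TPM over the detected nuclear protein-coding genes. In both libraries 17 of the 41 had 100 TPM or more, whereas 5.91% of the detected nuclear protein-coding genes did. Ranked by mean TPM among nuclear protein-coding genes, 5 members were among the top 100, 14 among the top 500 and 23 among the top 1000. Together the members took 0.846% and 0.888% of the mouse counts in replicates 1 and 2.

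The 3 arms of the pathway stood at different levels. The 18 glycolytic genes had a median of 204 ± 11.2 TPM, the 12 cycle genes 77.9 ± 2.37 TPM and the 11 pyruvate genes 49.9 ± 2.11 TPM (SD over n = 2 libraries, as throughout). The ranges of the arms overlapped. Glycolytic genes ran from Hk2 at 5.96 to Aldoa at 1127 TPM, pyruvate genes from Pdk4 at 7.74 to Pdha1 at 91.7 TPM, and cycle genes from Fh1 at 29.6 to Mdh1 at 278 TPM (means of both libraries).

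**Figure D1:**
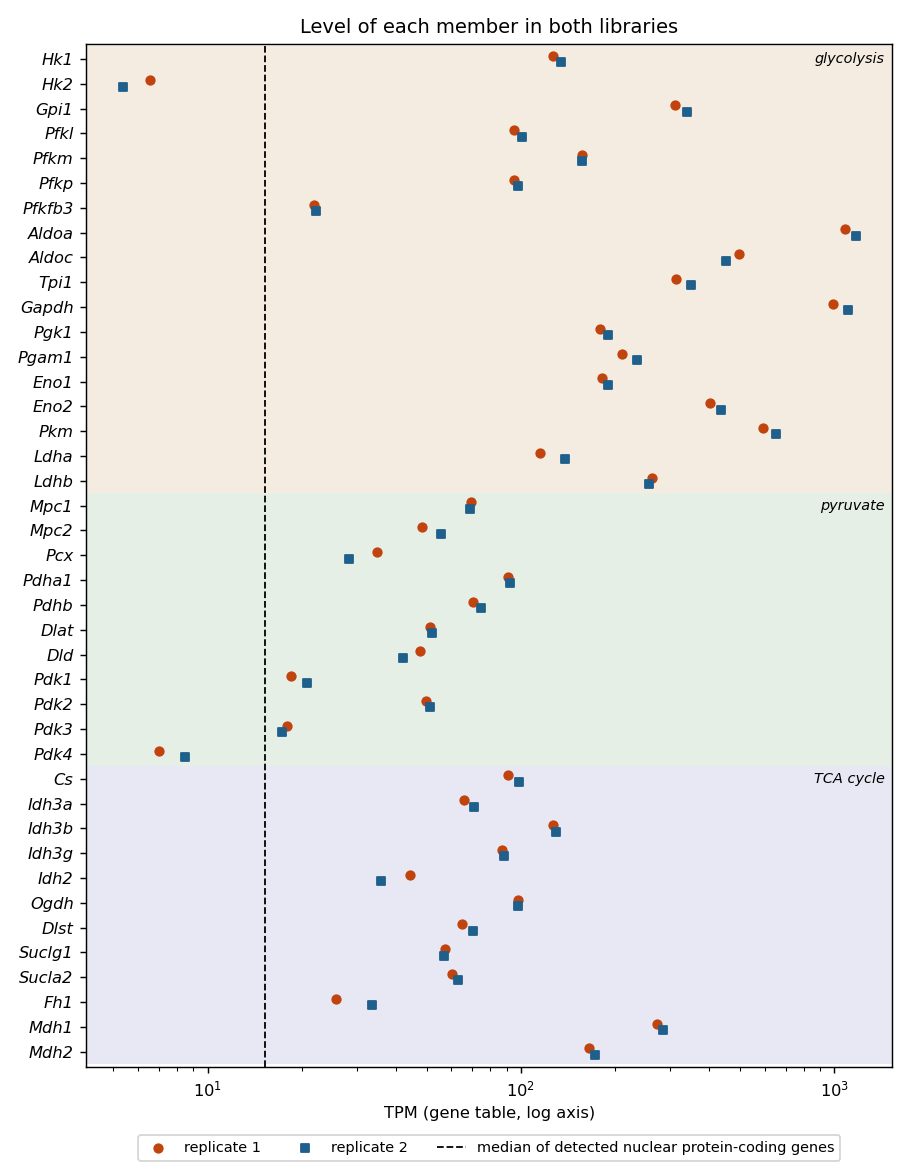
TPM of each of the 41 members in the gene table (log axis), circles for replicate 1 and squares for replicate 2, grouped by arm and ordered by step; the dashed line marks the median of detected nuclear protein-coding genes. Aldoa, Gapdh and Pkm stand highest, and 39 of the 41 lie above the dashed line, the exceptions being Hk2 and Pdk4.

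Entry of glucose was dominated by 1 hexokinase. Hk1, which phosphorylates glucose and binds the outer mitochondrial membrane, had 126.9 and 135 TPM in replicates 1 and 2. Hk2, the insulin-responsive hexokinase of muscle and fat, had 6.54 and 5.37 TPM, so Hk1 made up 95.1% and 96.2% of the TPM of the pair. Gpi1, which converts glucose 6-phosphate to fructose 6-phosphate, had 309.8 and 339 TPM and ranked 122 among nuclear protein-coding genes.

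The committed step, phosphofructokinase, was shared more evenly. Pfkm, the muscle-type subunit, had 157.2 and 156.8 TPM, Pfkl, the liver-type subunit, 95.3 and 100.95 TPM, and Pfkp, the platelet-type subunit, 95.2 and 97.7 TPM. Pfkm thus held 45.2% and 44.1% of the summed TPM, and Pfkl and Pfkp between 27.4% and 28.4% each. In the gene table Pfkl and Pfkp differed by less than the spread between the libraries. Pfkfb3, which makes and degrades the allosteric activator fructose 2,6-bisphosphate, was far lower, at 21.8 and 22.3 TPM.

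In the gene table aldolase was the most abundant step, an order that bears on how reads of Gapdh were assigned, as described with its copies. Aldoa, the muscle-type aldolase, stood at 1082 and 1172 TPM and was the tenth highest nuclear protein-coding gene in mean TPM. Aldoc, the brain-type aldolase that is known as an astrocytic gene in forebrain, had 498 TPM in replicate 1 and 451 TPM in replicate 2. Aldoc thus held 31.5% of the aldolase TPM in replicate 1 and 27.8% in replicate 2, and its TPM stood higher in replicate 1, against the direction of Aldoa. Tpi1, the triose phosphate isomerase, had 311.6 and 348 TPM.

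The genes of the later, ATP-yielding steps all had a lower TPM in replicate 1 than in replicate 2. The share of all genes lower in TPM was not counted. In scaled counts 58.7% of the genes with at least 100 counts and 1 TPM were lower in replicate 1. Gapdh, the glyceraldehyde 3-phosphate dehydrogenase, had 994 and 1108 TPM and Pkm, the pyruvate kinase of brain and muscle, 592 and 652 TPM. Eno2, the neuronal enolase, had 402 and 437 TPM, while Eno1, the enolase of most tissues, had 182 and 189 TPM. Pgam1, a phosphoglycerate mutase, had 210.1 and 234 TPM and Pgk1, the phosphoglycerate kinase, 179.5 and 189.5 TPM. Eno2 held 68.9% and 69.8% of the enolase TPM, but that share rests on how reads of Eno1 were assigned, as described with the near-identical copies.

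Lactate dehydrogenase joins subunits of both genes in its tetramers. Ldhb, the heart-type subunit, had 262 and 256 TPM, and Ldha, the muscle-type subunit, 114.96 and 138 TPM. Ldhb made up 69.5% of the pair in replicate 1 and 64.9% in replicate 2.

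**Figure D2:**
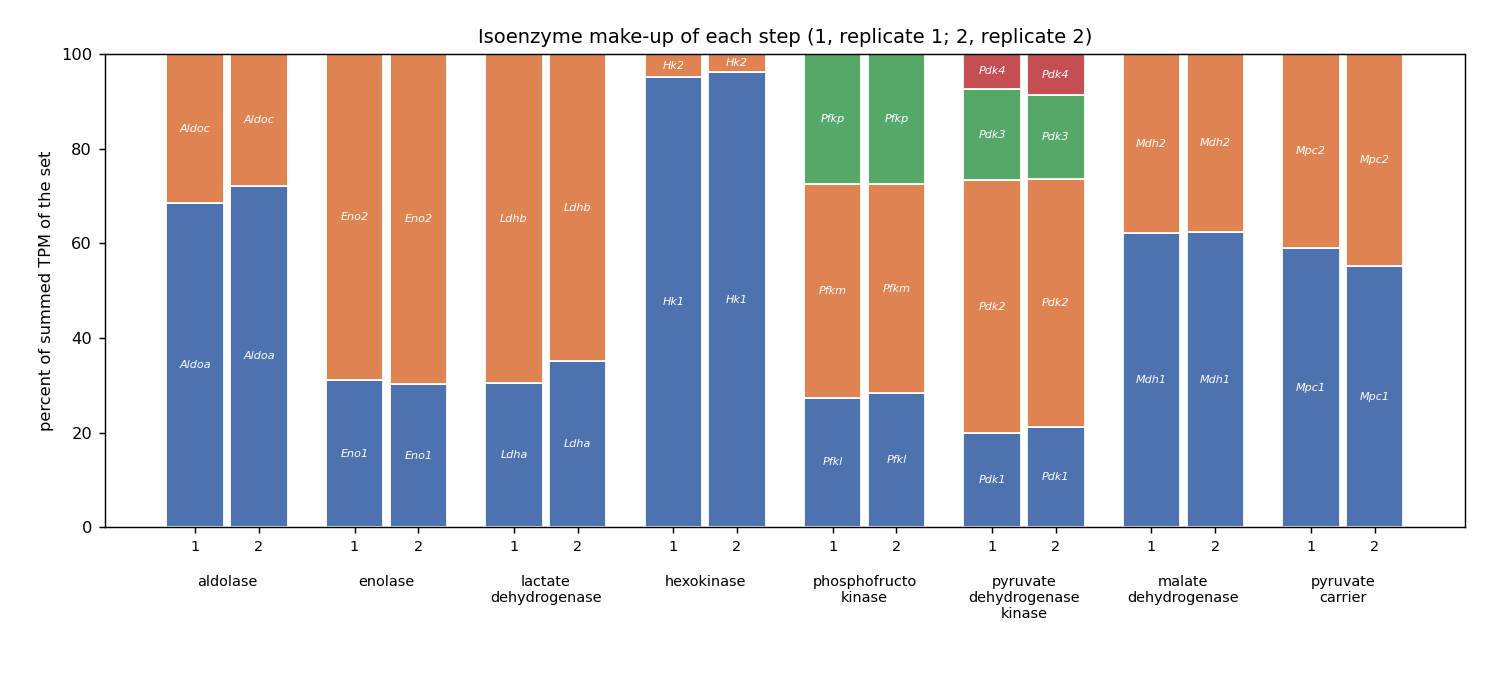
Percent of the summed TPM of each isoenzyme set held by each gene, as stacked bars with replicate 1 left of replicate 2. Hk1 holds nearly all hexokinase TPM, while phosphofructokinase and the pyruvate dehydrogenase kinases are split among 3 and 4 genes.

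Genes of pyruvate entry and oxidation stood lower than those of lactate formation. The mitochondrial pyruvate carrier is a pair of subunits, Mpc1 with 69.5 and 68.6 TPM and Mpc2 with 48.4 and 55.6 TPM. Pcx, the pyruvate carboxylase known in brain from astrocytes, had 34.7 and 28.4 TPM. Among subunits of the pyruvate dehydrogenase complex, the E1 genes Pdha1 with 90.9 and 92.5 TPM and Pdhb with 70.1 and 74.5 TPM exceeded Dlat, the E2 acetyltransferase, with 51.3 and 52.1 TPM. Dld, the E3 dehydrogenase that the oxoglutarate complex also uses, had 47.6 and 42.1 TPM.

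The kinases that switch the complex off were led by Pdk2. Pdk2 had 49.9 and 51.3 TPM, or 53.5% and 52.5% of the summed TPM of the 4 kinases. Pdk1 had 18.5 and 20.8 TPM and Pdk3 17.9 and 17.2 TPM, so by gene Pdk1 was the higher in both libraries. In replicate 1 the gap was less than the SD of Pdk1 between the libraries (1.59 TPM). On transcripts with a complete coding sequence alone the order was the reverse, as given in the closing section. Pdk4, the kinase known for its induction by fasting, was lowest, with 7.0 and 8.47 TPM.

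Among the cycle members the malate dehydrogenases stood highest. Mdh1, the cytosolic enzyme of the malate-aspartate shuttle, had 272 and 285 TPM, and Mdh2, the mitochondrial enzyme, 166 and 172 TPM. Mdh1 held 62.2% and 62.3% of the pair. Cs, the citrate synthase, had 91.1 and 98.3 TPM, and Ogdh, the E1 subunit of the oxoglutarate dehydrogenase complex, 98.1 and 97.97 TPM.

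The subunits of the NAD-dependent isocitrate dehydrogenase were not at 1 level. Idh3b had 127.0 and 129 TPM, Idh3g 86.8 and 88.4 TPM, and Idh3a, the catalytic subunit, 65.6 and 70.8 TPM, and the ranges of the 3 did not overlap. The NADP-dependent mitochondrial enzyme Idh2 was lower, with 44.2 and 35.7 TPM. Dlst, the E2 subunit beside Ogdh, had 65.0 and 70.3 TPM. The succinyl-CoA ligase subunits were close to each other, the alpha subunit Suclg1 at 57.1 and 56.7 TPM and the ADP-forming beta subunit Sucla2 at 60.3 and 63.0 TPM. Fh1, the fumarase, was the lowest of the 12 cycle members in the gene table, with 25.7 and 33.5 TPM. In the further deposited table compared below, Idh2 was lower than Fh1 in replicate 2.

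Gene positions are those of the mm10 assembly and the GENCODE M21 annotation. Aldoa lies on the minus strand of chromosome 7 at 126795234 to 126800751, and Pkm on the plus strand of chromosome 9 at 59656368 to 59679375. On chromosome 6, Eno2 (124760053 to 124769673), Tpi1 (124810586 to 124814296) and Gapdh (125161715 to 125166467) lie in 1 stretch on the minus strand. Pdha1, Pdk3, Pgk1 and Idh3g lie on the X chromosome.

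No member differed strongly between the libraries. Ratios were taken as the log2 ratio of replicate 1 over replicate 2 in CPM scaled by TMM, a trimmed-mean normalization, with a prior count of 2. Of the 41 members 0 passed 2-fold, where 0.268% of the 13062 genes with at least 100 counts and 1 TPM did. The members' ratios ran from -0.25 (Ldha) to 0.28 (Idh2). Their median absolute ratio was 0.086, beside 0.090 over all those genes.

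The small differences were mostly in 1 direction. For 32 of the 41 members (78.0%) the ratio was below 0, against 58.7% of all genes past the same filter. For 21 members (51.2%) the 95% interval from counting error left out 0, against 31.6% of all genes. That interval narrows as counts rise, and the members were not matched to other genes by count. The 2 shares were therefore not compared at equal depth. Of these 21, 19 were lower in replicate 1, and the other 2, Aldoc and Idh2, were higher there. The median ratio of the members was -0.083, against -0.022 over the 14904 nuclear protein-coding genes with at least 10 counts. The interval covers counting error in these 2 libraries only, so it says nothing about animals. The size of the skew depends on the scaling. Without any scaling factor 27 members were lower in replicate 1, and with spike-in scaling 38 were, where 50.5% and 73.2% of all genes were lower.

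In glycolysis 15 of the 18 genes were lower in replicate 1, with a median ratio of -0.13, and under the other scalings 14 to 17 were. Ldha had 3273 counts in replicate 1 and 4449 in replicate 2, a ratio of -0.25 (95% interval -0.32 to -0.19). Eno2 had 15036 and 19561 counts, a ratio of -0.19 (-0.22 to -0.16), and Pfkl 5228 and 6746 counts, a ratio of -0.18 (-0.23 to -0.12). Aldoa, Gapdh, Pkm, Tpi1, Gpi1, Pgam1 and Hk1 lay between -0.13 and -0.16, while Pgk1 was at -0.09 and Ldhb at 0.05. Aldoc went the other way, with 16816 counts in replicate 1 and 17359 in replicate 2, a ratio of 0.15 (0.12 to 0.18). The 2 aldolases thus differed in direction between the same libraries, and any scaling factor moves both by the same amount, so the gap between them does not depend on it.

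Outside glycolysis the medians lay nearer to 0. Of the 12 cycle genes 10 were lower in replicate 1, with a median of -0.05, and of the 11 pyruvate genes 7 were, with a median of -0.01. Beside the 58.7% of all genes that were lower, the pyruvate count is near the background. Idh2 stood out, with 1238 counts in replicate 1 and 1161 in replicate 2, a ratio of 0.28 (0.17 to 0.40), while the 3 Idh3 subunits lay between -0.12 and 0.01. The 4 pyruvate dehydrogenase kinases lay between -0.01 and 0.07, and every one of their intervals held 0.

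**Figure D3:**
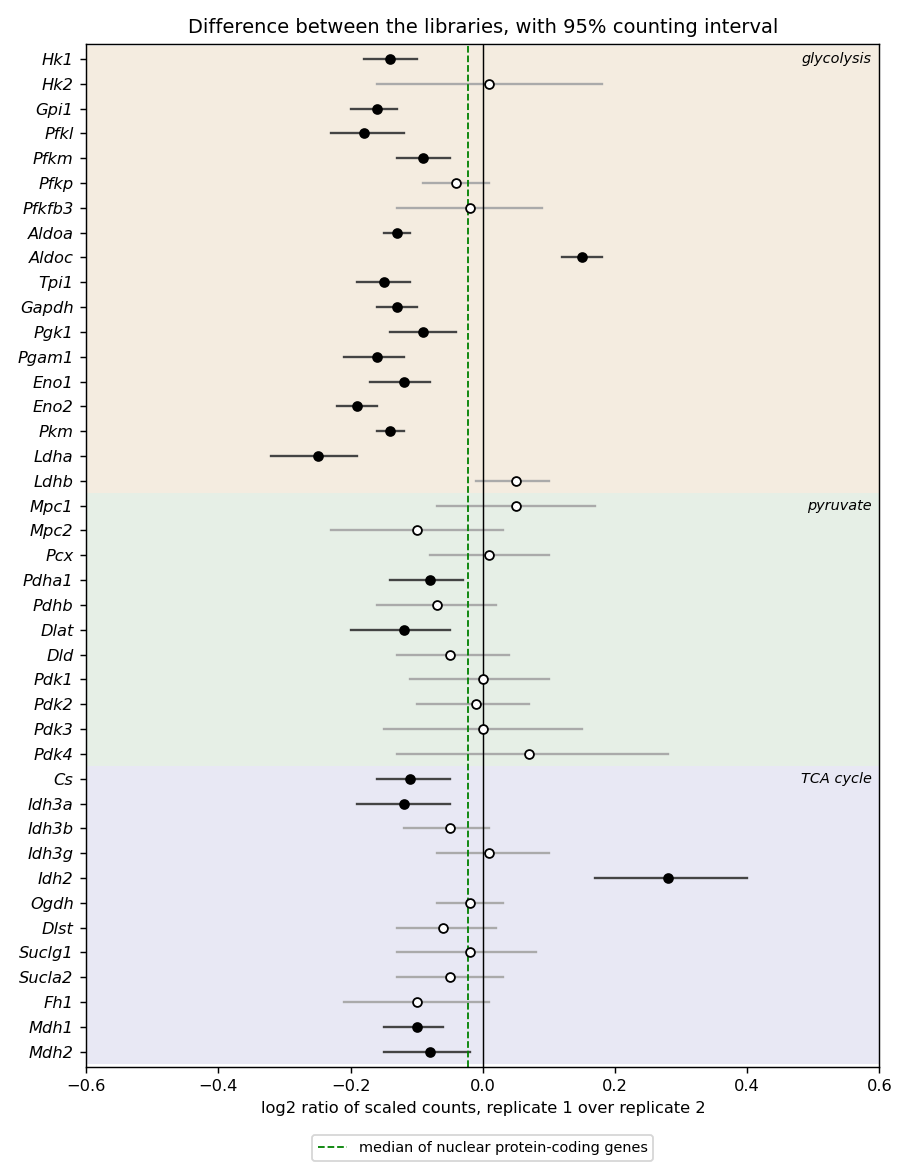
Log2 ratio of scaled counts, replicate 1 over replicate 2, for each member; bars are 95% intervals from counting error and filled points are those whose interval leaves out 0. Filled points lie left of 0 for 19 members and right of 0 for Aldoc and Idh2.

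Cell type markers differed between the libraries too, in a direction that depended on the list. Over all genes past the filter 58.7% were lower in replicate 1. Of 10 neuronal markers 9 were lower in replicate 1, with a median ratio of -0.13 and summed TPM of 2745 in replicate 1 against 3010 in replicate 2, and the hippocampal field markers, all 10 of them below 0, had a median of -0.14. Astrocytic markers went the other way, all 10 above 0, with a median of 0.10 and sums of 2907 TPM in replicate 1 against 2858 TPM in replicate 2. Oligodendrocytic markers did so too, all 10 above 0, with a median of 0.30 and sums of 2076 TPM in replicate 1 against 1685 TPM in replicate 2. Microglial markers were above 0 for 7 of 10 (median 0.12), markers of vessels for 3 of 10 (median -0.04), and all 5 red blood cell genes were (median 0.52). No marker of these lists was at 0 counts. The part of cell composition in the members' ratios was not tested.

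For 6 members TPM and counts gave different pictures of the replicates, since TPM also depends on which transcripts the reads were assigned to. Fh1 had the largest difference in TPM, with a log2 ratio of -0.38 in TPM but -0.10 in scaled counts. Its effective length, the mean length over its assigned transcripts, was 2329 bases in replicate 1 and 1918 bases in replicate 2. For Pcx the ratio was 0.29 in TPM and 0.01 in scaled counts, and for Hk2 0.28 and 0.01. Pdk4 changed sign, with -0.28 in TPM and 0.07 in scaled counts, and so did Dld, with 0.18 and -0.05. Pdk1 was the remaining gene whose effective length differed by over 10% between the libraries. Idh3g and Suclg1 also changed sign, with ratios of -0.03 and 0.01 in TPM, close to 0. Differences in TPM between replicates for these genes are therefore differences in transcript assignment as well as in counts.

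Pkm carries the best known alternative splicing event of the pathway. Exclusive use of the upstream of a pair of exons gives the M1 form, typical of adult muscle and brain, and use of the downstream exon gives the M2 form, typical of proliferating cells and also present in astrocytes. Both exons are coding, lie on the plus strand of chromosome 9 and have 167 bases. The upstream exon of Pkm-202 is at chr9:59675029-59675195 and the downstream exon of Pkm-201 at chr9:59675568-59675734 in mm10. They are shown because they are the only coding bases by which the forms differ. Capitals mark the 64 positions that differ between the exons, which are 61.7% identical.
Pkm-202 exon: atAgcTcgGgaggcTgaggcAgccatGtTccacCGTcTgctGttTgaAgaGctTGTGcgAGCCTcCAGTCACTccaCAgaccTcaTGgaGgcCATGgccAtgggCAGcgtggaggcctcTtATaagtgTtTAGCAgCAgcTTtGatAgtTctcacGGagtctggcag
Pkm-201 exon: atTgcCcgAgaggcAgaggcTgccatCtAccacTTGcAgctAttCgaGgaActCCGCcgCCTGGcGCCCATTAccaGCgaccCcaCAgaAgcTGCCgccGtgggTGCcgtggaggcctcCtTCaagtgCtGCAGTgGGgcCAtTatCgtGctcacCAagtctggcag

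Both forms were present at nearly equal levels. The authors deposited a pair of transcript tables, one in the column layout of the program RSEM, to which the gene table belongs, and one in that of kallisto. In the RSEM-layout table Pkm-202 had 288 and 326 TPM in replicates 1 and 2, and Pkm-201 had 282 and 307 TPM. Of the TPM on complete coding transcripts the M1 form made up 46.6% and 47.5% in the kallisto-layout table and 50.5% and 51.5% in the RSEM-layout table, so the leading form differed between the tables while the split stayed near even. The transcripts also differ at their ends, Pkm-201 being 391 bases longer, so reads outside these exons enter the split too.

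Hexokinase 1 differs between its forms at the start of its coding sequence, and Hk1-201 also has 69 coding bases further along that the other forms lack, which are not shown. The starts of 3 forms are shown because the tables disagreed on them; capitals are the coding bases at the start that the forms do not share, followed by the first 12 shared bases in lower case. Hk1 lies on the minus strand of chromosome 10. The capitals of Hk1-202 are at chr10:62340013-62340075 and encode the amino-terminal end by which hexokinase 1 is known to bind mitochondria. Those of Hk1-205 are at chr10:62342501-62342560, and those of Hk1-201 fall in more than 1 exon within chr10:62353058-62358362.
Hk1-202: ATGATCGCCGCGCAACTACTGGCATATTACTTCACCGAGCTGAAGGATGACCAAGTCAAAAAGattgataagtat
Hk1-201: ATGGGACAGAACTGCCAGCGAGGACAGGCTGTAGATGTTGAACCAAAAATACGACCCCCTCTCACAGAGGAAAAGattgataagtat
Hk1-205: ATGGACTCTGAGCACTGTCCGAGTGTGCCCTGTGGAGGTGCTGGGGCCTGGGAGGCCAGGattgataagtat

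The order of the Hk1 forms depended on the table. In the kallisto layout Hk1-202 made up 23.8% and 25.4% of the complete coding TPM in replicates 1 and 2, and the form of 2838 coding bases, carried by Hk1-201 and Hk1-203, 46.7% and 47.1%. In the RSEM layout Hk1-202 made up 56.3% and 61.2% and the form of 2838 coding bases 32.1% and 31.8%. Hk1-205 ranged from 6.99% to 29.5% over both tables and libraries. As a gene Hk1 was closer between the tables, with 124.1 and 131 TPM in the kallisto layout and 126.9 and 135 TPM in the gene table.

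Ogdh gave a splice pattern on which the tables came close. Its forms share 2969 coding bases and differ in exons that begin at coding base 415. Ogdh-201 uses an exon of 103 bases at chr11:6316978-6317080, and Ogdh-202 an upstream exon of 91 bases at chr11:6316765-6316855. Ogdh-203 joins the upstream exon to a further exon of 45 bases at chr11:6324878-6324922. The exons are shown in lower case, since they are alternatives and not aligned copies, all from the plus strand.
Ogdh-201 exon: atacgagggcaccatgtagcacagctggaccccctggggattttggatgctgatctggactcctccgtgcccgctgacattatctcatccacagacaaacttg
Ogdh-202 and Ogdh-203 exon: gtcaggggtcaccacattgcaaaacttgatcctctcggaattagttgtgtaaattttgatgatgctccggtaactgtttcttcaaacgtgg
Ogdh-203 further exon: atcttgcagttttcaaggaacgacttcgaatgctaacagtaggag

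The form with the 103-base exon led in both tables. In the kallisto layout it made up 65.2% and 68.7% of the complete coding TPM in replicates 1 and 2, and in the RSEM layout 67.5% and 69.0%. Ogdh-203 held 23.7% and 24% in the kallisto layout and 21.2% and 23.9% in the RSEM layout. Ogdh-202 held 11.1% and 7.26% in the kallisto layout and 11.3% and 7.09% in the RSEM layout. Both libraries and both tables gave the same order of these forms.

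Of the members' 318 annotated transcripts 85 carry a complete coding sequence, from start to stop codon, and 25 members have only 1 distinct complete coding sequence. The leading transcript was the same in both tables for 37 members and differed for Hk1, Pfkfb3, Gapdh and Pkm. For 18 members the leading transcript held less than 70% of the TPM in the RSEM layout. Neither count has a share over all genes to stand beside it.

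Part of the TPM lay on transcripts without a complete coding sequence. The median member had 71.5% of its TPM on complete coding transcripts in the kallisto layout and 80.1% in the RSEM layout. In the RSEM layout 5 members had a mean below 60%, namely Gpi1, Gapdh, Dlat, Dlst and Mdh1. For Mdh1, the 549-base Mdh1-202 held 37.6% and 34.2% of the TPM with 903 and 980 counts, against 6212 and 7713 counts on the coding Mdh1-201. A short transcript needs few reads to reach a high TPM, and the tables use different effective lengths. The deposited effective length is 231.1 and 235.1 bases below the length in the kallisto layout for replicates 1 and 2, and 100 bases below it in the RSEM layout. The share on complete coding transcripts was lower in the kallisto layout for 31 of 41 members. This was not counted over all genes, so nothing particular to the members is read from it.

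Gapdh had 74.4% and 63.6% of its TPM on complete coding transcripts in the kallisto layout and 33.2% and 32.2% in the RSEM layout, the lowest share there. Its leading transcript in the RSEM layout was Gapdh-208, a noncoding transcript of 483 bases, with 649 and 736 TPM from 4885 and 6316 counts, while the coding Gapdh-201 had 327 and 347 TPM from 7539 and 9127 counts. In the kallisto layout Gapdh-208 held 0.112% and 0.0816% of the TPM, and the coding Gapdh-203 57.5% and 53.7%. In the RSEM layout Gapdh had 330.3 and 357 TPM on complete coding transcripts alone, below Aldoc with 477 and 431 TPM. By gene Gapdh stood above Aldoc. In the kallisto layout Gapdh was the higher on complete coding transcripts too. Gapdh-203 alone had 560 and 624 TPM there, against 470 and 419 TPM for all of Aldoc. In counts not divided by length, Gapdh had 12966 and 16204 against 16816 and 17359 for Aldoc. The effective lengths in the gene table were 663.7 and 652.2 bases for Gapdh and 1720 and 1716 bases for Aldoc, so these counts do not order the levels.

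**Figure D4:**
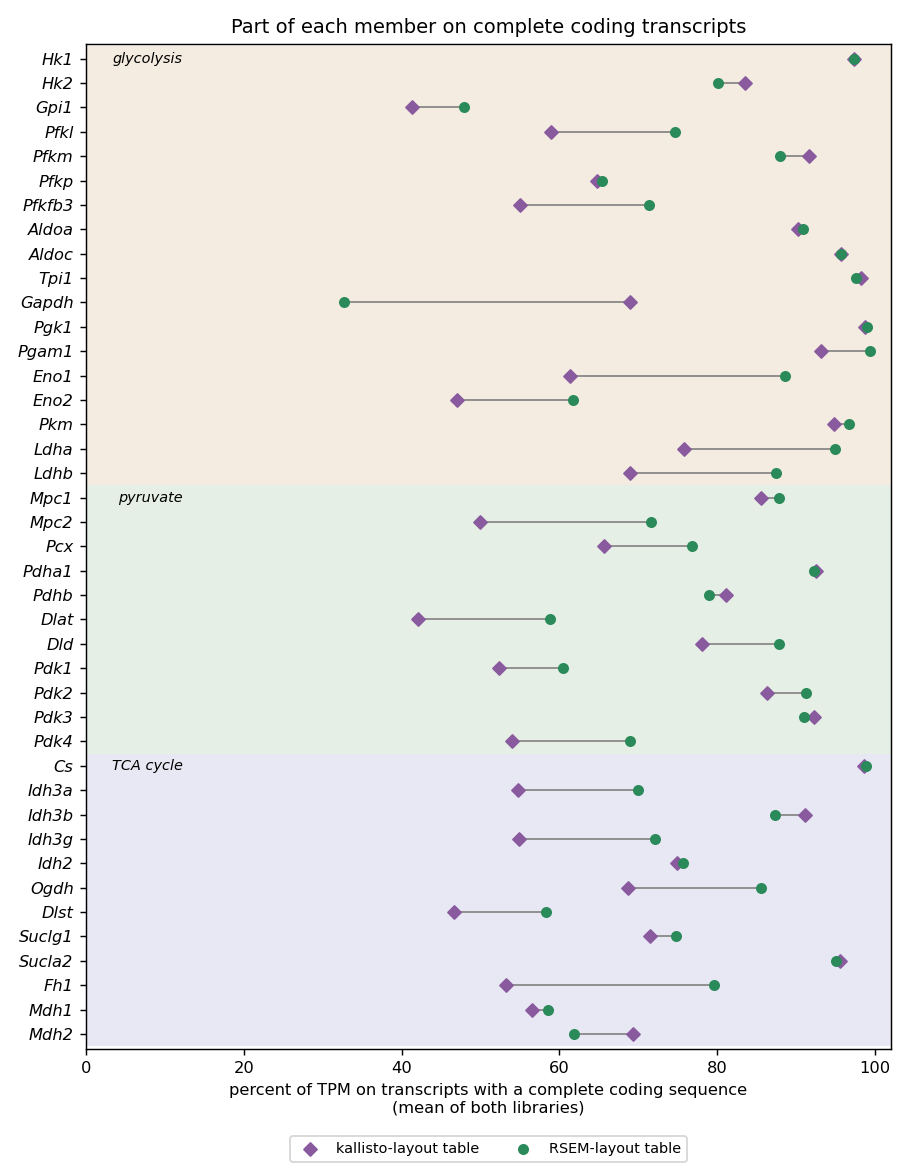
Percent of each member's TPM that lay on transcripts with a complete coding sequence, as the mean of both libraries, in the kallisto-layout table (diamonds) and the RSEM-layout table (circles). The points lie far apart for Gapdh, Eno1 and Fh1 and nearly coincide for Hk1, Pgk1, Cs and Sucla2.

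At the level of genes the tables were closer. Of the 39 members with a mean TPM of at least 10, 0 differed by 1.5-fold between the kallisto-layout and gene tables, where 1.94% of 8397 nuclear protein-coding genes did. Ratios between tables were taken after scaling both to nuclear protein-coding genes. The largest difference was that of Eno1, with 228 and 290.5 TPM in the kallisto layout and 182 and 189 TPM in the gene table, a mean of 1.40-fold. Mpc2 followed with 1.33-fold and Fh1 with 1.31-fold, and the lowest was Pfkm with 0.860-fold. Some orders of genes changed. In the kallisto layout Pdhb had 62.88 and 62.92 TPM and Dlat 63.94 and 61.86 TPM. Fh1 had 35.55 and 40.66 TPM there and Idh2 41.94 and 32.73 TPM, so Idh2 was the lower in replicate 2. Pfkl and Pfkp, close in the gene table, lay further apart in the kallisto layout, with 103.8 and 107.2 TPM against 92.44 and 90.54 TPM.

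Near-identical copies bear on 15 members. Transcripts of other annotated genes matched theirs at 90% identity or more over at least 200 bases, 235 genes in all, most of them processed pseudogenes, which are reinserted copies of spliced RNA. The other 26 members had none. For Aldoa, Cs and Tpi1 the copies held under 1% of the member's own counts in the gene table.

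Eno1 was the member most affected. Its copy Eno1b, 99.5% identical over 1736 bases and annotated as protein-coding, had 142.4 and 159.9 TPM, and the pseudogene Gm4735, 99.6% identical over 1302 bases, had 88.2 and 94.4 TPM. Together with Gm4735 and the other copies, Eno1b held 107% and 108% of Eno1's own counts in the gene table. Eno1 with Eno1b and Gm4735 summed to 412 and 443 TPM, close to the 402 and 437 TPM of Eno2. With the copies counted to Eno1, Eno2 held 49.4% and 49.6% of the enolase TPM, in place of 68.9% and 69.8%. How many of the reads on the copies came from Eno1 RNA was not tested.

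Gapdh had the most copies, 177 genes. Its 171 annotated pseudogenes held 10680 and 13232 counts in the kallisto layout, or 45.3% and 45.7% of Gapdh's own counts there, and 1400 and 1989 counts, or 10.8% and 12.3%, in the gene table. Most of the kallisto-layout counts lay on Gm7336, 99.8% identical over 1232 bases, with 9790 and 12205 counts in the kallisto layout and 209 and 328 in the gene table. Gapdh with Gm7336 summed to 1352 and 1575 TPM in the kallisto layout and to 1004 and 1121 TPM in the gene table. In the kallisto layout Aldoa had 965 and 1035 TPM and Aldoc 470 and 419 TPM. With Gm7336 added, the Gapdh step there was thus above aldolase in replicate 2 and below it in replicate 1. How many reads on Gm7336 came from Gapdh RNA was not tested. Gm12070 and Gm12671, at 99.9% and 100% identity over 1002 bases, took reads unevenly, Gm12671 having 259 counts in replicate 1 and 0 in replicate 2, and Gm12070 having 249 and 806. The deposited posterior SD of Gapdh, the authors' measure of uncertain assignment, was 86.0 and 111 counts, far less than the gap between the tables for Gm7336. Another 1007 and 1177 counts lay on Peli2, a protein-coding gene of which a transcript holds a Gapdh-like stretch of 1085 bases at 90.8% identity, and how many of them came from that stretch was not tested.

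Other copies took less. Gm5537, identical to Pgk1 over 1252 bases, had 0 counts in the kallisto layout and 11.0% and 11.1% of Pgk1's counts in the gene table. Mpc1-ps, 99.7% identical to Mpc1 over 330 bases, likewise had 0 counts in the kallisto layout and 9.30% and 12.4% of Mpc1's counts in the gene table. In the gene table Pgam1-ps2 held 3.25% and 2.86% of Pgam1's counts, and Gm1840 4.56% and 4.52% of Gpi1's. The largest posterior SD relative to the count was that of Pgk1, at 1.45% and 1.15%.

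**Figure D5:**
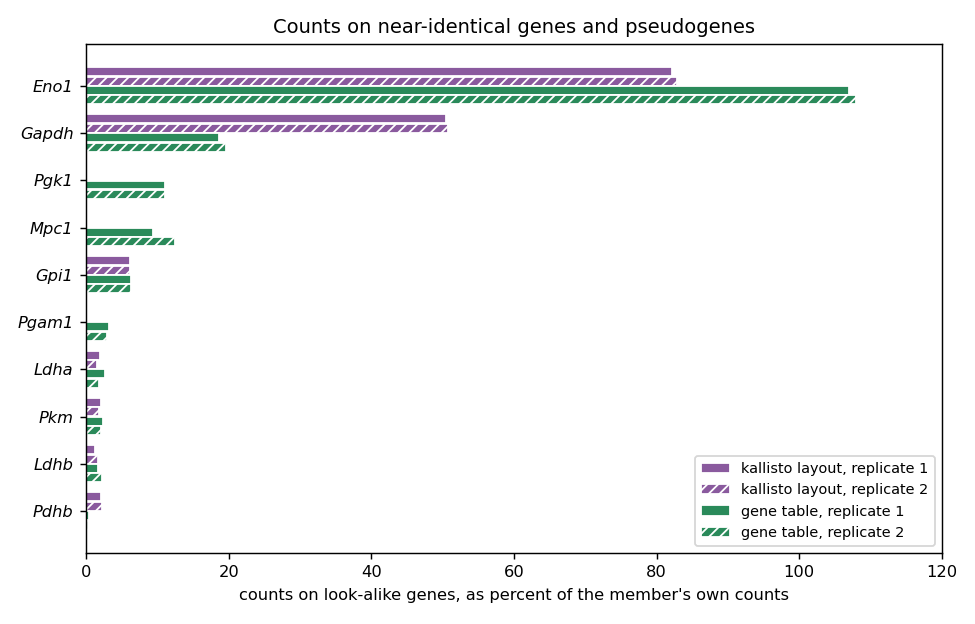
Expected counts on all matching genes of a member, pseudogenes or not, as percent of the member's own counts, in the kallisto-layout table and the gene table; plain bars are replicate 1 and hatched bars replicate 2, and members under 1% in both tables are left out. Copies exceed 100% for Eno1 in the gene table, and the tables part most for Gapdh.

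Other genes of the same metabolism filled in the picture. All 6 genes examined of the Slc2a family, which holds the glucose transporters, were detected. They were led by Slc2a1, the transporter of the blood-brain barrier and glia, with 40.4 and 42.5 TPM. Slc2a3, the neuronal transporter, had 32.8 and 39.8 TPM. Of the 6 genes 3 were lower in replicate 1, Slc2a3 among them with a ratio of -0.20. Of 6 genes of lactate transport 5 were detected, with Bsg, the chaperone of the transporters, at 248.9 and 261 TPM and the neuronal transporter Slc16a7 at 16.3 and 20.0 TPM. Slc16a3, a lactate transporter known from glycolytic cells, had 3.97 and 4.83 TPM, with a ratio of -0.28. Of 17 further glycolytic isoenzymes 11 were detected. Bpgm, the bisphosphoglycerate mutase, had 31.1 and 27.9 TPM. Pgam2, the muscle phosphoglycerate mutase, had 72 counts in replicate 1 and 138 in replicate 2, with a ratio of -0.73. The testis forms Gapdhs, Pgk2 and Ldhc had 0 counts in both libraries, chosen here after their values were seen, and Pdha2, the testis form of Pdha1, was also at 0.

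Further genes around the cycle were measured too. Their counts of genes lower in replicate 1 stand beside 58.7% of all genes past the filter and a median of -0.022 over nuclear protein-coding genes, and nothing particular to a list is read from them. Sdha, the flavoprotein of succinate dehydrogenase, had 147 TPM in replicate 1 and 154 TPM in replicate 2. All 16 further genes of the cycle and its replenishment were detected, and 12 of them were lower in replicate 1. All 8 genes of the NADH shuttles, such as the transaminases Got1 with 147 and 152 TPM and Got2 with 93.4 and 98.5 TPM, were detected, and every one of the 8 ratios lay below 0 (median -0.10). Pdp1, the phosphatase that switches pyruvate dehydrogenase on, had 28.9 and 24.8 TPM, with a ratio of 0.18. Of 8 pentose phosphate genes, led by Tkt at 87.0 and 90.2 TPM, 7 were lower, and of 14 glycogen genes, among them the brain phosphorylase Pygb with 91.3 and 89.1 TPM, 10 were. Of 16 regulators of glycolysis and the hypoxia response 11 were lower, of 7 genes of pyruvate dehydrogenase dephosphorylation and assembly with enough counts 3 were, and of 7 genes of fructose bisphosphate control and gluconeogenesis 4 were. In these lists 0 genes passed 2-fold between the libraries.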

How the data were processed

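Total RNA of hippocampus was sequenced in 2 libraries with ERCC spike-ins, from 300 ng of RNA each, per the labels. The authors deposited, per library, a gene and a transcript table of expected counts, TPM, posterior SDs of counts and the percent of a gene's TPM on each transcript, in RSEM's column layout, per the file headers. A further transcript table of estimated counts and TPM has kallisto's column layout, per the file headers. Both were made on mm10 with GENCODE M21, per the deposited notes; the sources used here do not name the aligner, the counting programs or their versions. The 26249 rows with no gene name (0.0006579% and 0.0006591% of counts in replicates 1 and 2) and 96 ERCC rows were left out. The number of unused per-sample columns was 0.

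For ratios between replicates the deposited expected counts, rounded to integers, received TMM factors from edgeR 4.0.16 (under R 4.3.3) and a prior count of 2, and with DESeq2 1.42.0 size factors as an alternative. Replicate ratios were called at 2-fold with a mean count of at least 100 and a mean TPM of at least 1, and medians used genes averaging 10 counts or more. Ratios between tables were called at 1.5-fold from 10 TPM. The 95% intervals and the floor of 3 counts cover counting error only, since reads carry no molecular identifiers. Near-identical genes were found with blastn 2.17.0 between annotated transcripts, at 90% identity over 200 bases. Sequences were read from the GENCODE M21 transcripts. Tables were made with Python 3.11.15 and pandas 2.3.3. With 1 group of 2 libraries no test was run.

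Named were all 41 members, and of the 18 other lists (184 genes, all matched) mainly the 3 genes of highest TPM and the gene of largest ratio. Also named were transcripts with at least 10% of a member's TPM where the leading one differed between tables or held under 70%, and for Pkm and Hk1, and the 3 near-identical genes with most counts. Of the Gapdh copies, Gm7336 and Gm12671 were named after their values were seen. The members and lists were chosen with earlier results of these data known.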

Additional observations from a re-analysis of the deposited data

How the results depend on the processing

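Levels depended on the base of TPM and on the transcripts counted. Scaled to nuclear protein-coding genes alone, the median over members was 210.9 TPM and the medians of glycolysis, pyruvate genes and the cycle 455.7, 111.4 and 174.1 TPM. On complete coding transcripts alone, an alternative chosen after seeing the data, these were 73.42, 173.7, 37.17 and 60.90 TPM, and Gpi1, Pfkp, Gapdh, Eno2, Dlat, Pdk1, Dlst, Mdh1 and Mdh2 changed by over 1.5-fold. On those transcripts Pfkl had 68.39 and 78.45 TPM in replicates 1 and 2, and Pfkp 59.88 and 66.28 TPM. Pdk1 had 12.09 and 11.60 TPM on them and Pdk3 15.94 and 16.04 TPM, so Pdk3 was the higher in both libraries. In the kallisto layout the medians of glycolysis and the cycle were 244.7 and 75.16 TPM. The members' share was 1.10% of counts on nuclear protein-coding genes and 0.759% of TPM.

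Isoenzyme shares kept the same leading gene except for Eno2. From the kallisto layout the shares of Eno2, Pfkm, Pdk2, Mdh1 and Mpc1 were 64.7%, 40.4%, 51.2%, 63.0% and 53.1%. From counts not divided by length the shares of Aldoa, Eno2, Ldhb, Pfkm, Pdk2, Mdh1 and Mpc1 were 65.0%, 71.1%, 60.9%, 40.1%, 45.6%, 65.2% and 53.2%. Posterior mean TPM gave 52.0% for Pdk2 and 62.1% for Mdh1. With near-identical genes added, also chosen after seeing the data, Eno2 held 49.5% and Mpc1 64.5%. With spike-in scaling the members' median log2 ratio was -0.141 and their median absolute ratio 0.142. From single libraries, 0 to 1 member (Eno1) passed 1.5-fold between tables, and the median share on complete coding transcripts was 78.7% to 86.3%. That share was 71.5% in the kallisto layout and 99.9% among transcripts annotated as protein-coding. The cause of these shifts was not tested. All 41 members stayed detected at 0.5 TPM and 39 at 10 TPM, and 0 passed 2-fold under any scaling. No paired analysis was possible because there is 1 group.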
